A study of Mus musculus with 8 samples.

Results

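The odorant receptor (OR) genes numbered Olfr161 to Olfr209 lie on mouse chromosome 16, and their mRNAs are described here after deletion of Lhx2 in the olfactory epithelium. Members were taken by symbol: every transcript cluster (the probes of 1 gene) of the array that the platform annotation maps to a single Olfr symbol in this number range, leaving out pseudogene symbols. This gave 32 clusters of 32 genes, out of 1023 OR clusters and 23410 clusters with a gene symbol. RefSeq places all 32 on chromosome 16, but at 3 separate loci rather than in 1 cluster. Olfr161 lies alone at the first locus. The second locus holds 7 members from Olfr164 to Olfr171, and the third holds 24 members from Olfr172 to Olfr206. Loci were separated where more than 20 protein-coding genes other than ORs lie between neighbouring members, and 170 and 286 such genes lie in the 2 gaps.

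Olfactory mucosae were taken at postnatal day 26 from 4 OmpCre:Lhx2(fl/fl) mice (knockouts) and 4 littermate controls, on a mixed 129 and C57BL/6J background, and each mouse was measured on 1 Affymetrix Mouse Gene 1.0 ST array. Of the controls, 3 were OmpCre:Lhx2(fl/+), and control replicate 1 was Lhx2(fl/+) without Cre, so every mouse carried at least 1 floxed allele. Cre was expressed from the Omp locus and so acts in mature olfactory sensory neurons (OSNs), the study describes the recombination of Lhx2 as incomplete, and only the first exons of Lhx2 are floxed. The sample was the whole mucosa, in which fewer neurons expressing a receptor and less receptor mRNA per neuron cannot be told apart.

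Each OSN expresses 1 OR gene, chosen from a large repertoire of genes that lie in clusters on many chromosomes. OR promoters and the distant enhancers that act on OR clusters carry binding sites for homeodomain proteins such as Lhx2 and for Ebf proteins, and Ldb1 is a partner through which LIM homeodomain proteins act at enhancers. Because an array of whole mucosa sums over all neurons, the signal of an OR reflects how many OSNs chose the gene and how much mRNA each makes. MOR numbers, an older nomenclature, group receptors of similar protein sequence: the third locus holds 8 members of MOR184, 8 of MOR183, 7 of MOR182 and Olfr192, for which RefSeq lists no MOR number. RefSeq lists Olfr192 and Olfr197 as transcribed pseudogenes. At the second locus, Olfr164 and Olfr165 are MOR279, Olfr170 and Olfr171 are MOR273, and Olfr166, Olfr167 and Olfr168 are MOR270, MOR272 and MOR271. Olfr161 is MOR131.

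A RefSeq window of 300 bases, 250 before and 50 after the annotated gene start (GRCm38.p6), was at hand for 23 members. In 13 of these the annotated start is an ATG, so that the window covers the sequence before the coding start and not a promoter. The homeodomain core TAATNA was searched on both strands, since a factor of this class was deleted. The windows of the member with the largest decrease in knockouts (Olfr181), of the member with the smallest standard deviation among controls (Olfr196), of the smallest called decrease (Olfr202) and of the member with no decrease (Olfr161) are shown 5′ to 3′, with TAATNA on either strand in capitals.
Olfr181 (chr16:58928595-58928894, minus strand): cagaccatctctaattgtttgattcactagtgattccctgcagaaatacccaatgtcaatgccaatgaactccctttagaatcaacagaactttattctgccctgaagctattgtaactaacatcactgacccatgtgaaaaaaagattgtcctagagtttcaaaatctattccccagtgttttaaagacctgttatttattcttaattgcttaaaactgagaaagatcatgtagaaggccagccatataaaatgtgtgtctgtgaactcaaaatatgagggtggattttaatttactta
Olfr196 (chr16:59168092-59168391, minus strand): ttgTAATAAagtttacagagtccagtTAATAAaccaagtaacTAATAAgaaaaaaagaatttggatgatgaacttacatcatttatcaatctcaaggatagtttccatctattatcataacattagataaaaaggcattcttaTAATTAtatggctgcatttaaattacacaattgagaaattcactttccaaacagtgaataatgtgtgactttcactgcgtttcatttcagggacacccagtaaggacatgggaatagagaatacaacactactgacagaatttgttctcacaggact
Olfr202 (chr16:59284446-59284745, minus strand): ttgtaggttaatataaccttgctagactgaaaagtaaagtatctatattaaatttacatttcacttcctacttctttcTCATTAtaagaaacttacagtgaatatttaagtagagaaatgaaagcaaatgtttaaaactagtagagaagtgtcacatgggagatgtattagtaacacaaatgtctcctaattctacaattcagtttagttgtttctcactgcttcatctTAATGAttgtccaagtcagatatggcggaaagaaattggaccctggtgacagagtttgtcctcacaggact
Olfr161 (chr16:3592148-3592447, plus strand): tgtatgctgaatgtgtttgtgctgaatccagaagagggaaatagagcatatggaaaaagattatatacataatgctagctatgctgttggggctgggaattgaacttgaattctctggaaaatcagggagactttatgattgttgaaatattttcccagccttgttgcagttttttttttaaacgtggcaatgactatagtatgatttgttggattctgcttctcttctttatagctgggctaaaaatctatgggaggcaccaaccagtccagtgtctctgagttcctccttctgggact
TAATNA occurred in 12 of the 23 member windows (52.2%), in 622 of 944 OR windows (65.9%) and in 8692 of 32851 windows of all genes (26.5%). The annotated start is an ATG in 685 of these OR windows and in 1915 of the windows of all genes. The 3 sets of windows are therefore unlike, and the shares of this and the other motifs do not compare promoters. Of the windows shown, Olfr196 holds 4 matches and Olfr202 holds 2, both of the form TAATGA, while Olfr181 and Olfr161 hold none. The annotated start is an ATG for Olfr196, Olfr202 and Olfr161 but not for Olfr181, whose window is thus of another kind. TAATTA, which is contained in TAATNA, occurred in 3 member windows (13%), in 18.6% of OR windows and in 5.29% of all windows. TAATGA, also contained in TAATNA, occurred in 4 member windows (17.4%), in 28.8% of OR windows and in 9.78% of all windows. CCCNNGGG, a core bound by Ebf proteins, occurred in 0 of 23 member windows, in 3.07% of OR windows and in 13.7% of all windows. The median log2 change in knockouts was -1.59 for the 12 members whose window holds TAATNA and -1.89 for the 11 whose window holds none. Each of these sets mixes windows with and without an ATG at the annotated start, so the medians do not compare promoters. Matching letters are not binding sites, and enhancers lie outside these windows.

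The most alike windows were those of Olfr191 and Olfr193, both MOR183, which share 268 of 300 bases (89.3%). They are shown because close copies can share probes, and both mRNAs were among the members that decreased most. Capitals mark bases with no identical partner.
Olfr191 (chr16:59086432-59086731, minus strand): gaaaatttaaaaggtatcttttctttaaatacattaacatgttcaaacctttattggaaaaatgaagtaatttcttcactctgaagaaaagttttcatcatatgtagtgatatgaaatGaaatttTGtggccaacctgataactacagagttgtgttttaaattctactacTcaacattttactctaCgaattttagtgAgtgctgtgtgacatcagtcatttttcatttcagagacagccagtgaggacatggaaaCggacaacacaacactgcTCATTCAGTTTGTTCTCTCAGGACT
Olfr193 (chr16:59110584-59110883, minus strand): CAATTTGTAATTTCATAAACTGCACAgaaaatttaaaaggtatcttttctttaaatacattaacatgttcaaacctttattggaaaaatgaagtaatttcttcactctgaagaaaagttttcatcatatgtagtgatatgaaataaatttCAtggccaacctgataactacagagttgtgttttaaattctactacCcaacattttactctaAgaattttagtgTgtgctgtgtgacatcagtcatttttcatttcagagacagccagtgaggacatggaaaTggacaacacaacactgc
Of the 32 capitals in Olfr191, 25 stand at its end and 7 inside the aligned stretch, and of the 32 in Olfr193, 26 stand at its start and 6 inside. The annotated start is an ATG for Olfr191 but not for Olfr193, and the windows are offset. The capitals at the ends are therefore bases beyond the other window, not differences between aligned bases. Among the other pairs, Olfr164 and Olfr165 shared 71.0% and Olfr172 and Olfr173 shared 67.7% of bases. The median identity was 46.3% over 53 pairs of the same MOR family and 46.0% over 200 pairs of different families. Every pair shared at least 40.0%, so values near these medians do not show related sequence.

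Nearly all members decreased in knockouts. Of the 32 members, 30 (93.8%) were lower at an adjusted p under 0.05 (limma, adjusted over all 23410 clusters), where 6.29% of all clusters were lower. In limma 0 members were higher, where 2.1% of all clusters were higher, and 0 were higher at an unadjusted p under 0.05 or in the methods' t-test. The median log2 change was -1.81, which is 71.4% less mRNA, and the range was -2.50 to 0.01. Over the 991 other OR clusters, 823 (83.0%) were lower and the median log2 change was -1.02. Over all 23410 clusters the median was 0.05. The members that were lower had between 1.38 and 5.64 times less mRNA in knockouts (median 3.57), and 9 of them had at least 4 times less. In each of these 30, all 4 knockouts lay below all 4 controls, with a gap of 0.14 (Olfr202) to 1.91 between the lowest control and the highest knockout. In either direction, the groups were also apart for 835 of the 991 other ORs and for 3336 of all 23410 clusters. All such fold values are on the array's log2 scale, which can compress differences of dim probes. Of the members, 5 had a knockout mean under 5, in a table that runs from 2.66 to 14.64.

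**Figure D1:**
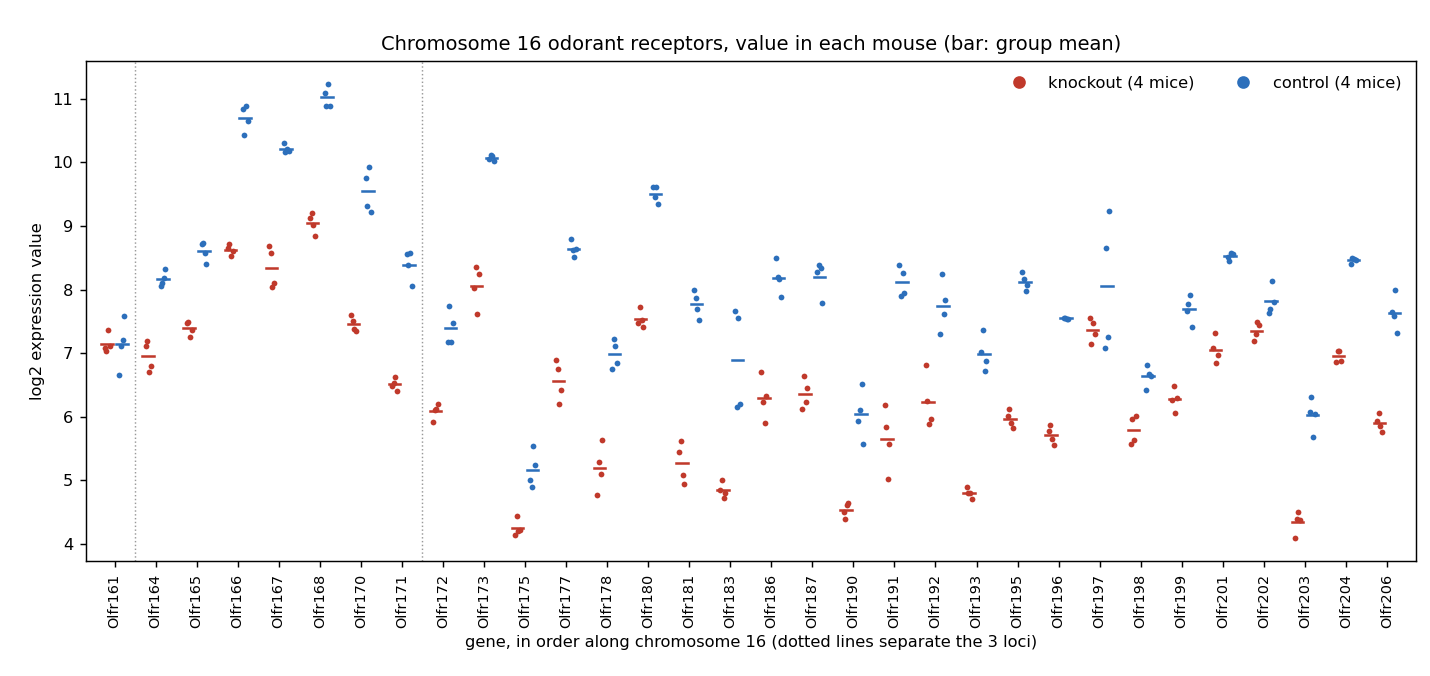
Log2 expression value (y axis) of the 32 members in each mouse, with genes in their order along chromosome 16 on the x axis, knockouts in red at the left and controls in blue at the right of each gene; bars are group means (n = 4 each). The groups are apart for every gene except Olfr161 and Olfr197, and they are also apart for 835 of the 991 other ORs.

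The decrease was similar in each mouse. The mean over the 32 members was 6.48, 6.54, 6.32 and 6.39 in knockout replicates 1 to 4, against 8.05, 8.09, 8.12 and 7.99 in control replicates 1 to 4. That is 6.43 ± 0.10 in knockouts and 8.06 ± 0.06 in controls (SD, n = 4 each), a difference of -1.63 on the log2 scale, and the groups were far apart relative to their spread. The mean over the 991 other ORs was 7.13, 7.14, 7.15 and 7.0 in knockouts, against 8.16, 8.08, 8.08 and 8.21 in controls, a difference of -1.03. Knockout replicate 3 had the lowest mean over the members and the highest over the other ORs. Sample titles carry a number that begins with 5 (2 knockouts, 2 controls), 7 or 9 (1 of each), and the difference over the members was -1.56, -1.80 and -1.60 within these title series. Within them 31, 30 and 32 of the 32 members were lower in knockouts. The changes of single members correlated between series 5 and 7 (Pearson's r = 0.84), 5 and 9 (0.71) and 7 and 9 (0.58), over 32 members that share arrays within a series.

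**Figure D2:**
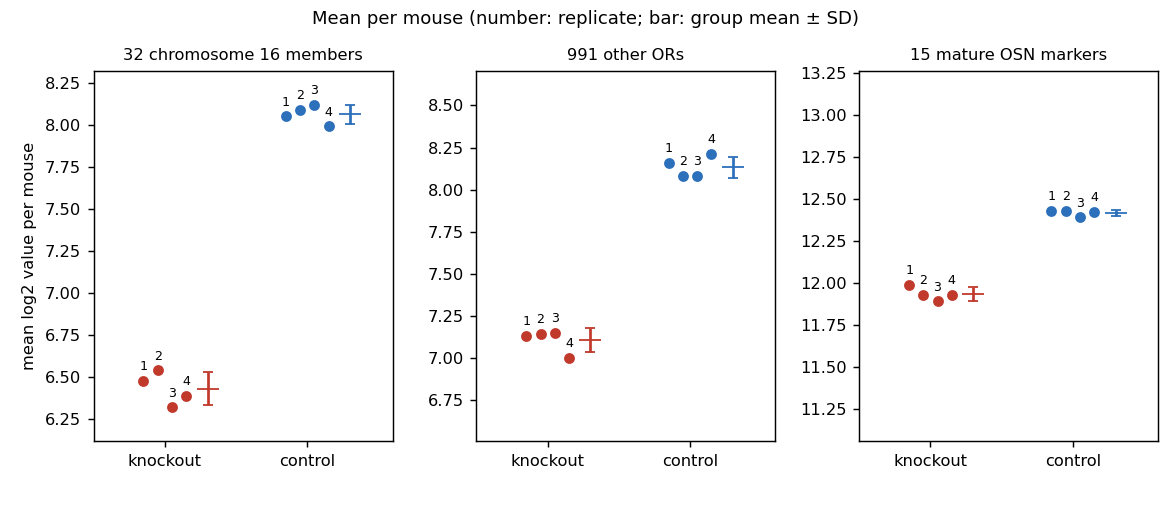
Mean log2 value per mouse (y axis; each panel spans the same number of log2 units) over the 32 members, the 991 other ORs and 15 mature OSN markers, with knockouts at the left and controls at the right; numbers are replicates and bars are the mean ± SD (n = 4 each). The difference is -1.63 for the members, -1.03 for the other ORs and -0.48 for the mature OSN markers.

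At the second locus all 7 members decreased, with a median log2 change of -1.89 and a range of -2.09 to -1.21. Olfr170 (transcript cluster 10438431) had values of 7.60, 7.51, 7.38 and 7.35 in knockouts, against 9.75, 9.31, 9.93 and 9.22 in controls (-2.09 ± 0.15, standard error; adjusted p = 1.04e-05). Olfr166 (10434287) had values of 8.66, 8.71, 8.53 and 8.60 in knockouts, against 10.84, 10.43, 10.89 and 10.65 in controls (-2.08 ± 0.10; adjusted p = 1.35e-06). Every knockout lay far below every control for both receptors, and the knockouts differed little among themselves. Olfr168 (10438427), whose control signal was the highest of the members, had values of 9.13, 9.20, 9.01 and 8.85 in knockouts, against 11.09, 10.89, 11.24 and 10.88 in controls (-1.98 ± 0.10; adjusted p = 2.08e-06). Olfr167 (10438425) had values of 8.68, 8.57, 8.04 and 8.10 in knockouts, against 10.31, 10.17, 10.21 and 10.18 in controls (-1.87 ± 0.14; adjusted p = 1.25e-05). Its knockouts formed a higher pair (replicates 1 and 2) and a lower pair (replicates 3 and 4), while its controls lay close together. Olfr171 changed by -1.89 ± 0.11, and Olfr164 and Olfr165, the MOR279 pair at one end of the locus, each changed by -1.21.

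At the third locus 23 of 24 members decreased, with a median log2 change of -1.76. The exception was Olfr197. By family, 8 of 8 MOR184 members were lower (median -1.99, range -2.50 to -0.92), 7 of 8 MOR183 members (median -1.86, range -2.46 to -0.69) and 7 of 7 MOR182 members (median -1.47, range -1.74 to -0.46). The pseudogene Olfr192 was lower too (log2 change -1.52 ± 0.24; adjusted p = 0.00184). The 2 members with the largest decreases lie here and ranked 3 and 4 among the 1023 ORs by decrease.

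Olfr181 (MOR184; 10440147) had values of 5.45, 5.62, 5.09 and 4.95 in knockouts, against 7.99, 7.87, 7.70 and 7.53 in controls, a log2 change of -2.50 ± 0.15 or 82.3% less mRNA (adjusted p = 4.55e-06). Olfr191 (MOR183; 10440158) had values of 6.19, 5.84, 5.03 and 5.57 in knockouts, against 8.38, 7.90, 8.26 and 7.94 in controls (-2.46 ± 0.22; adjusted p = 4.29e-05). Knockout replicate 3 was low for Olfr191, whose knockouts spread more (SD 0.49) than those of any other member, yet no mouse overlapped. Olfr193 (MOR183; 10440162) had values of 4.90, 4.8, 4.81 and 4.71 in knockouts, against 7.02, 7.36, 6.72 and 6.88 in controls (-2.19 ± 0.12; adjusted p = 2.80e-06). Olfr195 (MOR184; 10436412) had values of 6.01, 6.13, 5.91 and 5.83 in knockouts, against 8.27, 8.17, 7.98 and 8.07 in controls (-2.15 ± 0.09; adjusted p = 7.81e-07). The knockouts of Olfr193 and both groups of Olfr195 lay close together. Olfr173 (MOR184; 10440136), with the highest control signal at this locus, had values of 8.02, 8.36, 7.61 and 8.25 in knockouts, against 10.05, 10.11, 10.10 and 10.03 in controls (-2.01 ± 0.14; adjusted p = 8.56e-06). Its controls were nearly equal, and knockout replicate 3 was again the lowest.

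Of the members that decreased, Olfr202, Olfr198 and Olfr175 did so least. Olfr175 (MOR184) changed by -0.92 ± 0.14, with means of 4.25 ± 0.13 in knockouts and 5.17 ± 0.29 in controls (SD, n = 4 each; adjusted p = 0.00135), and its probes gave the lowest signal of the members in both groups. Olfr198 (MOR182) changed by -0.84 ± 0.12, with means of 5.80 ± 0.22 in knockouts and 6.64 ± 0.16 in controls (adjusted p = 0.00103). Olfr202 (MOR182) had values of 7.19, 7.30, 7.49 and 7.45 in knockouts, against 7.63, 7.70, 8.14 and 7.81 in controls, the smallest decrease that passed (-0.46 ± 0.12; adjusted p = 0.0342). The groups for Olfr202 were apart by only 0.14, and the call was lost without any of 4 mice in turn (knockout replicate 1, 2 or 4 or control replicate 4; adjusted p = 0.0595 to 0.0998). The neighbours of Olfr202 in gene order, Olfr201 (-1.47 ± 0.10) and Olfr203 (-1.69 ± 0.13), decreased more.

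**Figure D3:**
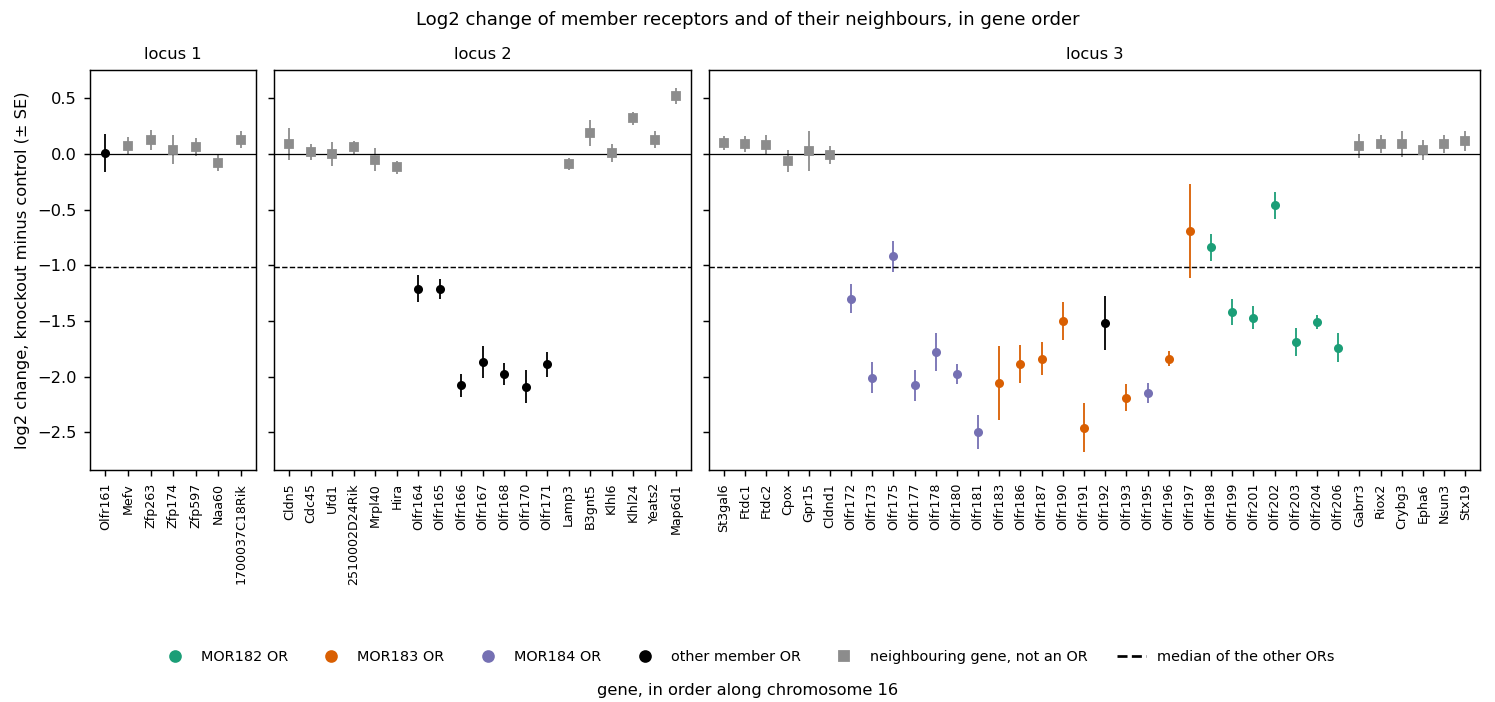
Log2 change (knockout minus control) ± standard error on the y axis, for the member ORs (circles, coloured by MOR family) and up to 6 genes that are not ORs on each side (grey squares), with genes in their order at each locus on the x axis. The members of loci 2 and 3 lie between -2.50 and -0.46, while the neighbouring genes lie between -0.12 and 0.52; the dashed line is the median of the other ORs, -1.02.

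Of the members, 2 were not called. Olfr161 (10433193), alone at the first locus, had values of 7.09, 7.04, 7.36 and 7.12 in knockouts, against 6.66, 7.11, 7.21 and 7.58 in controls (0.01 ± 0.17; adjusted p = 0.985). The knockouts lay within the range of the controls, and the sign depended on which mouse was left out. Olfr197 (10440168), a pseudogene at the third locus, had values of 7.56, 7.15, 7.47 and 7.31 in knockouts, against 7.09, 8.66, 7.25 and 9.24 in controls (-0.69 ± 0.42; adjusted p = 0.461). Control replicates 2 and 4 were far above all knockouts, and control replicates 1 and 3 lay at or below most of them. Without Olfr161 and Olfr197 the mean log2 change of the members was -1.72, against -1.63 with them.

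Olfr183, which also belongs to MOR183, showed the reverse split among the same controls. Olfr183 (10436409) had values of 4.85, 5.0, 4.72 and 4.8 in knockouts, against 7.67, 6.16, 7.56 and 6.21 in controls (-2.06 ± 0.33; adjusted p = 0.00245). Here control replicates 1 and 3 were high and control replicates 2 and 4 low, while the 4 knockouts were close together and below every control. Among the 1023 OR clusters, the standard deviation over controls ranked 2 for Olfr197 (1.06) and 6 for Olfr183 (0.83). In contrast, Olfr196, the neighbour of Olfr197 in gene order, had values of 5.78, 5.87, 5.65 and 5.55 in knockouts, against 7.55, 7.56, 7.54 and 7.54 in controls (-1.84 ± 0.07; adjusted p = 7.81e-07). The control without Cre is replicate 1, and the title series of control replicates 1 to 4 are 5, 5, 7 and 9. The cause of these splits was not tested. Over all members the median standard deviation was 0.15 in knockouts and 0.22 in controls.

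**Figure D4:**
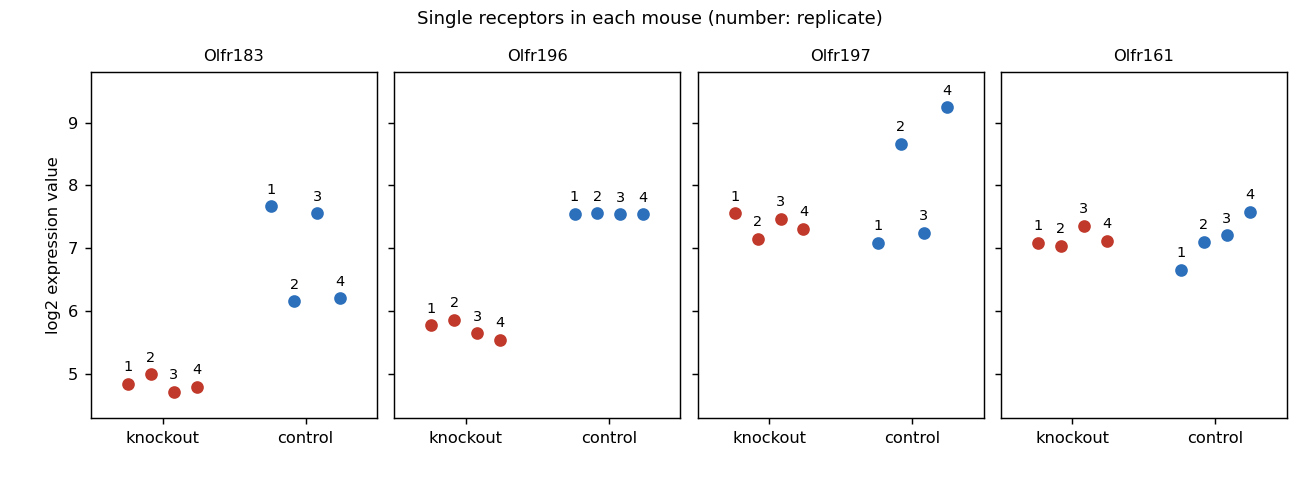
Log2 value (y axis) of Olfr183, Olfr196, Olfr197 and Olfr161 in each mouse, with knockouts in red at the left and controls in blue at the right; numbers are replicates. Controls 1 and 3 are high for Olfr183 (7.67 and 7.56), controls 2 and 4 are high for Olfr197 (8.66 and 9.24), and the controls of Olfr196 lie between 7.54 and 7.56.

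Across the members, the control mean and the log2 change had a Pearson's r of -0.36 (Spearman's rho -0.36, 32 clusters), and across the other ORs -0.55 (rho -0.51, 991 clusters). These are correlations across genes, which share the same arrays and are not independent, and the control mean enters both quantities. When all ORs were ordered by control mean and divided into 4 bins, the median log2 change of the members was -1.60 in the lowest bin (8 members), then -1.74 (13), -1.51 (5) and -2.0 in the highest (6). The medians of the other ORs in the same bins were -0.60, -0.95, -1.13 and -1.37. Probes differ in how brightly they report an mRNA, so control signals of different receptors do not rank their abundance.

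**Figure D5:**
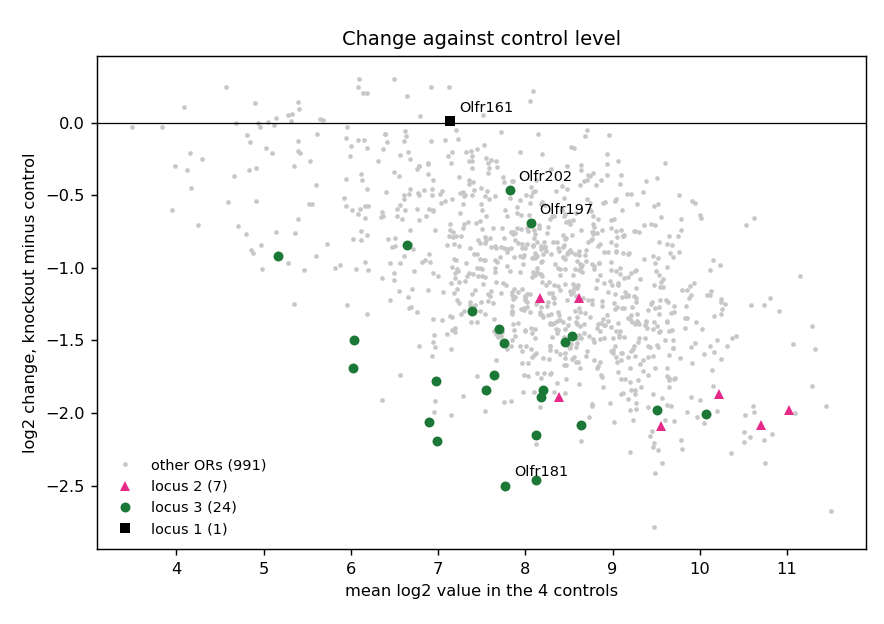
Log2 change (knockout minus control, y axis) against the mean log2 value of the 4 controls (x axis) for the 32 members, marked by locus, and the 991 other ORs (grey). The median change is -1.81 for the members and -1.02 for the other ORs, and Olfr161 lies at 0.01.

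Markers of mature OSNs decreased in the same mice. Of 15 measured genes of a 16-gene list, 13 were lower and 0 higher, with a mean log2 change of -0.48. Of all clusters, 6.29% were lower and 2.1% higher. The mean over the list ranged from 11.89 to 11.99 in knockouts and from 12.39 to 12.43 in controls. Omp, the mature OSN gene whose locus carries Cre, had values of 12.88, 12.8, 12.37 and 12.43 in knockouts, against 13.78, 13.56, 13.22 and 13.27 in controls (-0.84 ± 0.15; adjusted p = 0.00568), a call that the methods' t-test did not make (adjusted p = 0.0526). Control replicate 1, the mouse without Cre, had the highest Omp value, and without it the change in limma was -0.73 (adjusted p = 0.0148). How far the Cre insertion enters the Omp values was not tested. Of 12 immature OSN markers 1 was lower (8.33%, near the share over all clusters) and 1 higher. In limma, 0 were called among 7 markers of basal cells and progenitors, 6 of sustentacular cells, 7 of immune cells and 2 of blood. At an unadjusted p under 0.05, 1 basal cell marker and 1 immune cell marker were higher and 0 mature OSN markers were, and the methods' t-test called 0 markers higher in any list of this paragraph but that of immature OSNs. To set the members against the mature OSN markers, each array was also expressed relative to its mean over that list. On this scale the median of all clusters shifts to 0.53, so that 91.6% of all clusters are called higher and 3.82% lower. The members had a median log2 change of -1.33 on this scale: 29 of 32 were lower, Olfr202 was at 0.02 (adjusted p = 0.892), Olfr197 was at -0.21 (adjusted p = 0.642) and Olfr161 was higher (0.49; adjusted p = 0.0197). Of the other ORs, 660 (66.6%) were lower and 67 higher, with a median of -0.54. The part of mature OSN number in these values was not tested.

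The 6 closest measured genes on each side of each locus (30 genes, none before Olfr161) had a median log2 change of 0.07 and a range of -0.12 to 0.52, and 2 (6.67%) passed the test. In either direction 8.39% of all clusters passed, and 999 of 22260 clusters without an OR or trace amine receptor symbol (4.49%), so the share among these neighbours is near the background. Both lie beyond the second locus and were higher: Map6d1 (7.65, 7.75, 7.52 and 7.71 in knockouts, against 7.07, 7.13, 7.08 and 7.25 in controls; adjusted p = 0.000831) and Klhl24 (11.84, 11.72, 11.66 and 11.67 in knockouts, against 11.43, 11.38, 11.48 and 11.34 in controls; adjusted p = 0.011). The call of Klhl24 was lost in title series 5 alone (adjusted p = 0.0508). Map6d1 encodes a protein related to the microtubule-stabilising protein Map6, and Klhl24 a substrate adaptor of a ubiquitin ligase. Of all 415 measured genes other than ORs between the first and the last member, 12 were lower and 8 higher (4.82% in all, also near the background), with a median of 0.05.

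The remaining ORs of the chromosome were lower as well. Olfr15 and Olfr19 lie between the first and second loci and have numbers outside the range. Olfr15 had values of 8.98, 9.06, 9.17 and 9.15 in knockouts, against 11.27, 10.92, 11.36 and 10.81 in controls (-2.0 ± 0.12; adjusted p = 3.98e-06). Olfr19 had values of 8.61, 8.76, 9.38 and 8.55 in knockouts, against 10.18, 10.11, 9.96 and 10.38 in controls (-1.33 ± 0.17; adjusted p = 0.000555). Both sets of knockouts lay below all controls, with knockout replicate 3 the highest for Olfr19. In addition, 4 clusters in the number range map to several receptors and were not counted as members. These were lower too: the log2 change was -2.08 for Olfr171, Olfr170 and Olfr169 together, -1.78 for Olfr204, Olfr206 and Olfr205, -1.58 for Olfr194 and Olfr203, and -0.97 for Olfr209 and Olfr208 (adjusted p of at most 0.000785).

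Of 19 genes that act in OR choice and receptor trafficking, 6 were lower and 0 higher in limma (unadjusted p under 0.05: 7 and 2; the methods' t-test: 6 and 1), where 6.29% of all clusters were lower and 2.1% higher, and their median log2 change was -0.10. Adcy3, Rtp1 and Rtp2 are also on the mature OSN list, so the counts of the lists overlap. On the scale relative to that list, these genes enter the mean that scales them. Relative to the mature OSN list the count turned to 1 lower (Adcy3) and 15 higher, on a scale where 91.6% of all clusters are higher. There Lhx2 (0.23; adjusted p = 0.0101), Ebf3 (0.26; adjusted p = 0.00153) and Rtp1 (0.15; adjusted p = 0.0471) were higher, and Atf5 (0.05) and Rtp2 (0.06) did not pass. Lhx2 itself had values of 12.03, 11.99, 12.17 and 12.16 in knockouts, against 12.39, 12.33, 12.29 and 12.33 in controls (-0.25 ± 0.06; adjusted p = 0.0383). Its probes also cover exons that are not floxed, and the gene stays intact outside mature OSNs. How far either of these, or incomplete recombination, enters the Lhx2 value was not tested. The groups were apart but close, and the call was lost without any 1 mouse other than knockout replicate 3 (adjusted p = 0.0566 to 0.13), with arrays centred on their median (-0.19; adjusted p = 0.117) and over all transcript clusters (adjusted p = 0.0788). The largest decrease in the list was that of Adcy3, the adenylyl cyclase of the odorant signal (-0.98 ± 0.12; adjusted p = 0.000385). Atf5, a stress-response factor that links OR expression to OSN maturation, changed by -0.43, and the receptor transporters Rtp1 and Rtp2 by -0.33 and -0.42. Rtp1 was not called without control replicate 1 (adjusted p = 0.0517). Ebf3 changed by -0.22 (adjusted p = 0.034), a call lost without any 1 mouse other than control replicate 3 (adjusted p = 0.0515 to 0.122), with arrays centred on their median (0.119), over all transcript clusters (0.064) and in title series 5 alone (0.105). Ebf1 (-0.01), Ldb1 (-0.11) and Emx2 (0.17), another homeodomain factor of OSNs, did not pass the test.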

How the data were processed

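Each of the 8 mice was measured on 1 array. The deposited values are log2 expression values per transcript cluster, which the authors made with Affymetrix Expression Console (version, background correction and array build: not given in the sources used here). They were used as deposited, without further normalization. Arrays give no counts, so the number of arrays limits the precision. Clusters were named by the platform annotation, and chromosomes, gene order, MOR numbers and windows came from RefSeq (GRCm38.p6). Closely related receptors can share probes, so the value of a single receptor carries that uncertainty.

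Knockouts and controls were compared with lmFit and eBayes of limma 3.58.1 (R 4.3.3) in a 2-group design without covariates, and p-values were adjusted by Benjamini-Hochberg over all 23410 named clusters. A cluster was called at an adjusted p under 0.05, and ± after a log2 change is the standard error. Each array is a separate mouse, and which mice shared a litter is not known here. The members, gene lists and tests were chosen with earlier results of these data known. Described with their values were the 6 called members with the largest decrease, the 4 with the highest control mean, all members not called, Olfr15 and Olfr19, and listed genes. Olfr183, Olfr196, Olfr202, Olfr175 and Olfr198 were added after their values were seen. Alternatives covered scaling, filters, the variance model, title series and leaving out each mouse. The methods' t-test was an equal-variance t-test on the deposited values, and its calls given here use an adjusted p under 0.05. It differs from the study's own t-tests, which followed normalization to mature OSN mRNAs and used a stricter threshold. Those for the neighbouring genes, for Olfr15 and Olfr19, without Olfr161 and Olfr197 and at an unadjusted p were chosen after seeing the data, as was leaving out mice on the mature OSN scale. On simulated data for the comparison of knockouts with controls (23410 clusters), the fit found 62.7%, 94.0% and 98.5% of clusters given log2 changes of -0.5, -1 and -2, and 7 of its 177 calls were false. The simulation drew independent noise for each cluster and changed 67, 67 and 66 clusters, where 1965 were called in the data. These shares therefore need not hold for the data.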

Additional observations from a re-analysis of the deposited data

How the results depend on the processing

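The count of members called lower was 28 to 30 under every alternative run, and 27 of the 30 were called in all 18 alternatives that tested them; the dim filter leaves out 1 member. Leaving out each mouse gave 29 to 30 members lower, 0 higher and a mean log2 change of -1.67 to -1.59. Relative to the mature OSN list, 1 member was called higher, the mean change was -1.15 and all 30 neighbouring genes were called, since this scale moves the median of all clusters to 0.53 (0.05 as deposited, 0.11 with arrays centred on their median). On that scale Olfr202 was at 0.02. Olfr202 also missed the threshold with arrays centred on their median (-0.40, adjusted p = 0.0753), over all transcript clusters (adjusted p = 0.0849) and in the methods' t-test (adjusted p = 0.12); its cause was not tested. Olfr183 (adjusted p = 0.0623) and Olfr192 (0.103), and the neighbouring gene Klhl24 (0.0508), missed it in title series 5 alone, which has fewer samples. Without each mouse in turn Olfr161 ranged from -0.15 to 0.16; it was at -0.06 without knockout replicate 3, -0.15 without control replicate 1 and 0.00 without control replicate 2. No paired analysis was possible because the labels give no replicate numbers that pair mice; with the title series as a block 30 members were lower and the mean change was -1.63. Whether the array's lower range compressed the decreases of the 5 members with a knockout mean under 5 was not tested.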
